A study of Mus musculus with 4 samples.

Results

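The transcriptome described here is that of control neural crest cells: the 2 control siRNA libraries of JoMa1.3, of the 4 bulk RNA-seq libraries in the series, chosen by their treatment label. JoMa1.3 is a mouse line labelled as neural crest stem cells with a WT genotype, and its parent line is known as conditionally immortal through a tamoxifen-regulated c-Myc transgene. The cells had received the ON-TARGETplus Non-targeting Pool at 60 nM, with jetPRIME or RNAiMax (the labels name both), and RNA was taken at 72 h. They grew in DMEM and Ham's F-12 with 1% N2, 2% B27, EGF at 10 ng/mL, FGF at 1 ng/mL and 10% chick embryo extract. Control replicate 1 belonged to batch 1 and control replicate 2 to batch 2, and the other 2 libraries of the series, which carried an siRNA pool against Stk11 (Lkb1), were not used. All values come from 1 cell line, and nothing in the labels says how far the cultures were independent beyond their batch, so an SD here is the spread of 2 libraries that may be technical.

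Neural crest cells leave the border of the neural plate, lose their epithelial contacts and migrate through the embryo. They give rise to peripheral and enteric neurons and glia, to melanocytes, and in the head also to cartilage, bone and smooth muscle. Snail and Twist factors act in the change from epithelial to mesenchymal cells, SoxE factors (Sox8, Sox9 and Sox10) keep crest progenitors and glia, and the enteric branch depends on the receptors Ret and Ednrb.

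The gene table listed 15768 genes, each with a count in at least 1 of the 4 libraries. A gene with a mean of at least 1 FPKM (fragments counted relative to transcript length and library size) over the control libraries was taken as expressed, which held for 10993 genes, or 69.7% of those listed. Near this threshold a gene held a median of 47 counts per library. The control counts summed to 18718435 in replicate 1 and 19324675 in replicate 2. A gene with no count may still have been present at up to the 3 counts that a count of 0 allows, worth 0.160 and 0.155 CPM (counts scaled to a common library total; counting error only). A gene called not listed below has no row in the table and therefore no value here. In bulk RNA, few cells with a transcript and little transcript in each cell cannot be told apart. Below, paired values are FPKM in replicate 1 and then replicate 2.

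The siRNA target of the series, Stk11, stood at 52.7 and 52.1 in these controls. All 5 genes taken as markers of a mesenchymal neural crest culture were expressed. They do not belong to crest alone in the lists below. Vim, Snai2 and Twist1 are also mesenchyme genes there, Sox9 a cartilage gene and Nes a central neural progenitor gene. Vim, the intermediate filament of mesenchymal cells, was the highest of the 5 at 1884 and 1961, a mean of 1922 ± 54.2 (SD, n = 2). Snai2, a Snail repressor of epithelial genes, was at 53.1 and 53.3, and Twist1, a basic helix-loop-helix factor of cranial mesenchyme, at 29.8 and 30.7. Sox9, the SoxE factor of crest and cartilage, was at 12.3 and 12.2. In these 4 genes the libraries lay within a few percent of each other. Nes, an intermediate filament of neural progenitors, was at 35.2 and 25.1, the only marker clearly higher in replicate 1. Of the other SoxE genes, Sox8 stood at 0.04 and 0.1, and Sox10, the usual label of migrating crest and of glia, was not listed.

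The promoters of 3 marker genes are shown because they differ in base composition although all 3 genes were expressed. The sequences are the 120 bases upstream of the transcription start in RefSeq on GRCm38.p6, 5′ to 3′ on the strand of the gene, with CpG dinucleotides in capitals. They lie at chr2:13574191-13574310 (Vim), chr12:33957551-33957670 (Twist1) and chr3:87970973-87971092 (Nes), all on the plus strand.
Vim: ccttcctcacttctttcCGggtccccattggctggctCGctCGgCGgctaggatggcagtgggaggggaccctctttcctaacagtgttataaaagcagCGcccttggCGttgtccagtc
Twist1: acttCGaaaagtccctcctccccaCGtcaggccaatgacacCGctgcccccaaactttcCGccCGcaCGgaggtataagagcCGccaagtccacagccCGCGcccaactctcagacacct
Nes: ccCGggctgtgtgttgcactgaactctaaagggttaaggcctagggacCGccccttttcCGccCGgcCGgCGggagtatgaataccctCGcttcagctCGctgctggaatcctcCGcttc
The stretch of Vim held 6 CpG dinucleotides, that of Twist1 9 and that of Nes 9. The letters TATAAA, searched on both strands, were in the stretch of Vim and not in the other 2. In the longer window of 300 bases used below, Twist1 held these letters as well, and Nes did not.

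Of 42 neural crest transcription factor genes, 35 were listed and 26 were expressed, which is 74.3% of those listed beside 69.7% of all listed genes. The Id genes, whose proteins lack a DNA-binding region and hold back basic helix-loop-helix factors, led the list, with Id3 at 334 and 445 and Id1 at 125 and 139. Both were higher in replicate 2. Prrx2, a homeobox factor of mesenchyme, followed at 74.3 and 77.1, and its relative Prrx1 was at 27.5 and 28.3.

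Factors of the neural plate border were expressed at moderate levels. Zic2 stood at 39.0 and 52.5 and Zic1 at 19.2 and 24.2, both zinc finger genes of the border. Tfap2b, an AP-2 factor, was at 33.5 and 38.3, while its paralogue Tfap2a was at 1.91 and 2.26 and Tfap2c at 1.72 and 1.12. The AP-2 family was therefore carried mainly by Tfap2b in both libraries. Pax3, a paired-box gene of the dorsal neural tube and early crest, was at 14.4 and 17.8. Msx1, a homeobox gene downstream of BMP signals, was at 2.77 and 3.15.

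Genes of emigration and migration were also present. Snai1 was at 20.4 and 23.3, so that Snai2 exceeded it in each library. Ets1, an ETS factor of cranial crest, was at 19.2 and 17.2. Meis2 was at 26.3 and 30.0, and the orphan receptors Nr2f1 and Nr2f2 were at 25.4 and 27.7 and at 23.1 and 21.0. Myc, which is active in premigratory crest, was at 23.4 and 21.2, a value that does not separate the gene from a transgene, and Mycn was at 4.66 and 2.98. The remaining expressed members were Id2 (4.85 and 6.11), Zic5 (4.06 and 4.18), Meis1 (2.99 and 3.76), Dlx1 (1.49 and 1.29) and Dlx2 (1.45 and 1.26). Id2, at a mean of 5.48, was at the median of the listed members, and the others lay below it.

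The rest of the crest list was low. Sox5 lay below the threshold at 0.59 and 0.7. Prdm1, Id4, Sox6, Sox8, Alx4, Gbx2 and Alx1 were below 0.1 on average, and Gbx2 and Alx1 were at 0 FPKM in both libraries. Foxd3, Pax7, Msx2, Dlx5, Dlx6 and Sox10 were not listed. The culture thus had the Snail, Twist, Zic, Pax3 and Tfap2b transcripts of crest without values for Sox10 and Foxd3.

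The Id family was split between high and nearly silent members. Id3 held 73.7% ± 2.39 (SD, n = 2) of the family's summed FPKM, while Id4 was at 0.1 and 0.07. Their promoters, from RefSeq on GRCm38.p6 as above, are shown as a pair from 1 family with an expressed and a nearly silent member. They lie at chr4:136143702-136143821 (Id3) and chr13:48260996-48261115 (Id4), both on the plus strand, with CpG in capitals.
Id3: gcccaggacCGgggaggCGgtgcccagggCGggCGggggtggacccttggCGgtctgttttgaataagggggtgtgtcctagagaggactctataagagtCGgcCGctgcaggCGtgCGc
Id4: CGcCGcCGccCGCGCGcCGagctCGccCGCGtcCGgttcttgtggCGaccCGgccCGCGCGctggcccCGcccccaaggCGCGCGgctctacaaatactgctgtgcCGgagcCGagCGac
The nearly silent Id4 had 23 CpG dinucleotides in this stretch and the expressed Id3 had 9, so in this pair the gene with more CpG was the lower one.

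**Figure D1:**
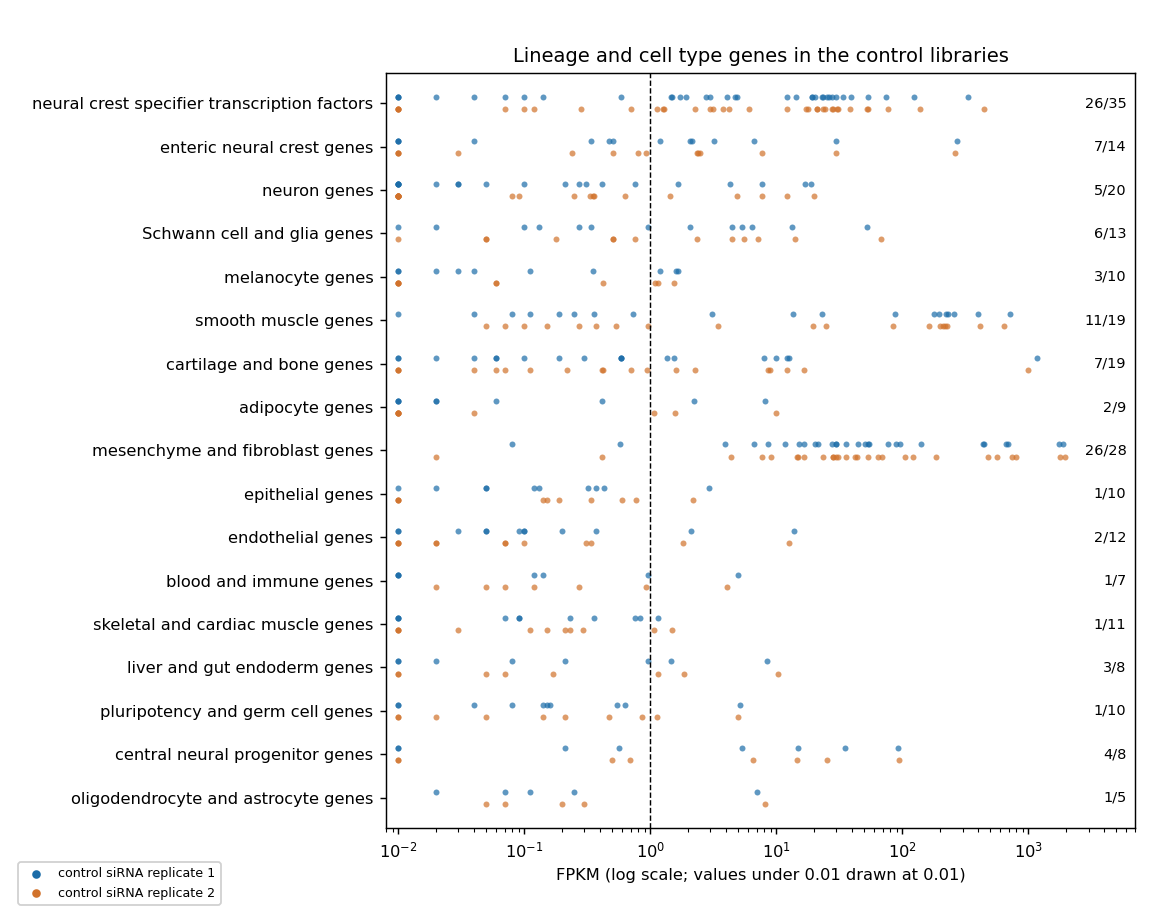
FPKM of each listed member of 17 lineage and cell type gene lists (rows) in control replicate 1 and control replicate 2 (1 point per gene and library, log axis), with the 1 FPKM threshold dashed and the number expressed over the number listed at the right. The mesenchyme list lies almost wholly above the threshold (26 of 28), while blood, endothelial and epithelial genes lie mostly below it.

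Hox genes, which record position along the body axis, had 18 expressed members of 28 listed, of 39 in the mouse genome; the 64.3% expressed is near the 69.7% of all listed genes. The Hoxc genes of paralogue groups 6 to 9 were highest: Hoxc9 at 44.2 and 44.7, Hoxc6 at 34.8 and 42.9 and Hoxc8 at 34.3 and 41.9. These 3 genes stood well above the next member, Hoxb9, at 12.4 and 10.9.

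The Hoxb cluster was read along most of its length at lower levels. Hoxb6 was at 8.74 and 7.84, Hoxb2 at 6.9 and 7.02, Hoxb7 at 6.01 and 7.23, Hoxb8 at 6.57 and 5.9 and Hoxb3 at 3.34 and 4.22. The single Hoxd gene above the threshold was Hoxd8, at 6.46 and 7.32. In Hoxa the highest member was Hoxa5, at 2.9 and 4.17. Toward the posterior end, Hoxc10 stood at 1.32 and 1.21 and Hoxa10 at 0.54 and 0.58. Of groups 11, 12 and 13 no member was listed, and neither were Hoxb1 and Hoxd10. Hoxd1 was near 0 at 0.03 and 0. Of the cofactors that bind DNA together with Hox proteins, all 9 Pbx, Meis and Pknox genes were expressed, beside 69.7% of all listed genes. Meis2 led, with Pbx3 at 23.7 and 28.6.

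**Figure D2:**
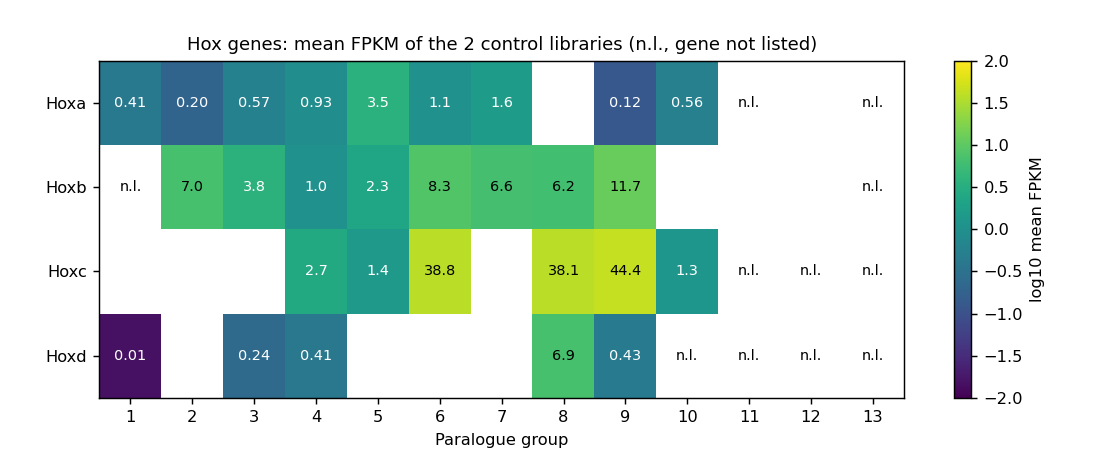
Mean FPKM of the 2 control libraries for each Hox gene, with clusters in rows and paralogue groups in columns; colour is log10 of the mean, n.l. marks genes not listed, and blank cells are positions with no gene in the mouse. The 3 highest cells are Hoxc6, Hoxc8 and Hoxc9, and no gene of groups 11 to 13 has a value.

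Outside the Hox genes, high members of the other transcription factor families included nuclear receptors and a partner of the Hippo pathway. Tead2, a DNA-binding partner of Yap and Taz, was at 86.2 and 97.3. The retinoic acid receptor Rarg was at 59.5 and 64.0 and the thyroid hormone receptor Thra at 51.5 and 60.5. Foxc1, a forkhead gene of cranial mesenchyme, was at 48.2 and 51.7. All 4 genes were higher in replicate 2.

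Among the Sox genes, 5 of 13 listed members were expressed (38.5%, beside 69.7% of all listed genes). The SoxC genes led: Sox4 at 30.3 and 38.3, Sox12 at 28.3 and 30.4 and Sox11 at 4.03 and 3.95. Sox13 was at 1.13 and 1.1. Sox2, a factor of neural stem cells, was at 0 FPKM in both libraries, and Sox21, Sox15, Sox7, Sox30 and Sox6 averaged 0.105 or less. Genes of pharyngeal and placodal development had values as well, with Eya2 at 30.3 and 32.3 and Tbx1 at 15.4 and 15.9. The mesenchymal T-box factors Tbx18 and Tbx15 were at 7.38 and 8.1 and at 6.75 and 7.68. Of the Pax genes, Pax6 was the only expressed one beside Pax3, at 5.35 and 6.57. Gata6 was at 8.75 and 8.64, and Dlx4 at 10.5 and 9.7.

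The genes of enteric neural crest were thinly represented. Of 20 named, 14 were listed and 7 expressed, beside 69.7% expressed of all listed genes. The highest were adhesion genes shared with many cells: Itgb1, the common integrin beta chain, at 274 and 263, and the cadherin Cdh2 at 30.0 and 29.8. Zeb2, a repressor needed for enteric crest, was at 6.64 and 7.75. Among the receptors, the endothelin receptor Ednra was at 3.2 and 2.48, the neuregulin receptor Erbb3 at 2.05 and 2.36 and the neurturin co-receptor Gfra2 at 1.19 and 0.92. All 3 receptors were low in both libraries.

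Other receptors and factors of the enteric list were below the threshold or had no row. Ednrb and the co-receptor Gfra3 were at 0 in both libraries. The GDNF co-receptor Gfra1 was at 0.47 and 0.24 and the low-affinity neurotrophin receptor Ngfr (p75) at 0.51 and 0.8. Ret, Phox2a, Hand2 and Sox10 were not listed. Some ligands of this niche were expressed: Ntn1 was at 33.6 and 28.8, Bmp4 at 17.7 and 20.2, Nrg1 at 8.84 and 9.24 and Gdnf, the Ret ligand, at 4.81 and 5.07. The endothelin-converting enzyme Ece1 was at 17.9 and 17.4, while Edn3, which signals through Ednrb, and Shh were not listed. Of 12 listed niche ligand genes, 7 were expressed (58.3%, below the 69.7% of all listed genes).

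Derivatives of the crest were represented unequally. The neuron, glia, melanocyte, contractile, cartilage and bone, and adipocyte lists each had a smaller share expressed than the 69.7% of all listed genes. Of 32 neuron genes, 20 were listed and 5 expressed: Ncam1 (18.98 and 20.05), Uchl1 (16.9 and 12.1), Tubb3 (7.75 and 7.71), the neurotrophin receptor Ntrk3 (4.31 and 4.89) and Map2 (1.65 and 1.43). Dcx and Elavl3 were at 0 in both libraries, and Elavl4, Stmn2, Snap25, Prph, Th and Chat were not listed. The transcripts of differentiated neurons, for vesicles, neurofilaments and transmitters, thus stayed below 1 FPKM or had no row.

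In glia, 6 of 13 listed genes were expressed (46.2%, beside 69.7% of all listed genes). Pmp22, a myelin protein gene that fibroblasts also transcribe, was highest at 52.5 and 67.1. Cnp followed at 13.27 and 14.03, and Egr2, the myelination factor, was at 6.37 and 7.19. Prx (5.29 and 5.53), Pou3f1 (4.46 and 4.43) and Erbb3 (2.05 and 2.36) were expressed as well. Mbp, a myelin protein gene, was at 0.27 and 0.51 and Gfap at 0.02 and 0.05, and S100b, Fabp7 and Sox10 were not listed. Of 10 listed melanocyte genes, 3 were expressed, none above 2 FPKM: Gpnmb (1.59 and 1.54), Mlana (1.65 and 1.09, on 9 and 8 counts) and Mitf (1.2 and 1.15). Tyr, the enzyme of melanin synthesis, was at 0.02 and 0, and Dct and Kit were not listed.

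Of 19 listed genes of the contractile list 11 were expressed (57.9%, beside 69.7% of all listed genes). Tpm1 led at 718 and 639, with Acta2, smooth muscle actin, at 230 and 219 and Tagln at 179 and 163. Smtn, a gene of contractile smooth muscle, was at 22.9 and 24.9 and the myosin light chain kinase gene Mylk at 3.11 and 3.42. Myh11, the heavy chain of mature smooth muscle, was at 0.04 and 0.07 and Cnn1 at 0 and 0.05, and their coactivator Myocd was not listed. In the cartilage and bone list, 7 of 19 listed genes were expressed (36.8%). Spp1 (osteopontin) stood far above the rest at 1173 and 999, higher in replicate 1. Acan, the cartilage proteoglycan, was at 9.97 and 8.84, Runx2, the master factor of bone, at 8.04 and 8.53 and Col2a1 at 1.35 and 1.6. Sp7 was at 0.06 and 0.04, and Col10a1, Bglap and Ibsp were not listed. Of 9 listed adipocyte genes, Cebpa (8.14 and 9.95) and Pparg (2.21 and 1.56) were expressed, and Adipoq, Lpl and Cd36 were at 0.06 or less in each library.

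Mesenchymal genes dominated the lineage lists: 26 of 28 listed members (92.9%) were expressed, beside 69.7% of all listed genes. S100a4 was at 1738 and 1794, the fibrillar collagens Col3a1 at 691 and 795 and Col1a1 at 445 and 565, the matrix glycoprotein Sparc at 670 and 739 and fibronectin, Fn1, at 439 and 479. All of these were higher in replicate 2. Postn was at 139 and 185. Nt5e (CD73) was near 0 at 0.08 and 0.02, Eng (CD105) was at 0.57 and 0.41, and Thy1 (CD90) was not listed, so none of these 3 surface genes of mesenchymal stromal cells had a mean at the threshold.

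Markers of cells that do not come from the crest were mostly low. Each of these lists had a smaller share expressed than the 69.7% of all listed genes. Of 10 listed epithelial genes, Krt19 alone was expressed, at 2.94 and 2.2, and the epithelial cadherin Cdh1 was at 0.05 and 0.01. Their summed FPKM was 4.43 and 4.4. Of 12 listed endothelial genes, Egfl7 (13.9 and 12.6) and Flt1 (2.09 and 1.81) were expressed, with Pecam1 at 0.05 and 0.02 and Cdh5 at 0.1 in both. Of 7 listed blood and immune genes, Hba-a1 alone was expressed, at 4.99 and 4.03, and Ptprc (CD45) was not listed. Gata4, at 1.15 and 1.48, was the single expressed one of 11 muscle genes, and Klf4, at 5.12 and 4.93, of 10 pluripotency and germ cell genes. In the gut list Lgr5 was at 8.39 and 10.2, Foxa1 at 1.46 and 1.86 and Foxa2 at 0.96 and 1.16, and Hnf4a and Cdx2 were not listed. Of the central neural progenitor genes, Nes (also taken as a crest marker above), Msi2 and Pax6 were expressed and Sox2 and Prom1 were at 0 FPKM. Slc1a3, a glutamate transporter of astrocytes, was at 6.99 and 8.12, the single expressed one of 5 listed genes of central glia. Their part in any level given here was not tested.

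The matrix and adhesion families differed in how evenly their members were expressed. Of 41 listed collagen chain genes, 20 were expressed (48.8%, beside 69.7% of all listed genes). After Col3a1 and Col1a1 the highest were Col6a1 at 326 and 378 and Col6a2 at 201 and 229. Col1a2, whose chain pairs with that of Col1a1, was far lower at 21.4 and 28.1. Of 11 laminin chain genes, 36.4% were expressed, beside 69.7% of all listed genes. These were Lamb1 (75.2 and 70.7), Lamc1 (68.5 and 68.3), Lamb2 (41.2 and 51.8) and Lama5 (9.2 and 10.4), so the single alpha chain was the lowest. The mesenchymal cadherin Cdh11, at 96.3 and 121, held 72.6% ± 2.93 (SD, n = 2) of the cadherin FPKM. Of 12 listed claudins, which seal epithelia, only Cldn12 was expressed (8.33%, beside 69.7% of all listed genes), at 13.9 and 13.04. Among the matrix proteases and their inhibitors, Timp2 was at 195 and 206 and Mmp2 at 162 and 173.

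In the Fgf and Wnt ligands a single member led. Fgf7, a growth factor that mesenchyme sends to epithelium, was at 55.3 and 51.7 and made up 85.0% ± 1.69 (SD, n = 2) of the summed FPKM of the Fgf ligands. Wnt6, at 50.7 and 58.1, made up 54.2% ± 2.19 of the Wnt ligands, followed by Wnt5a at 19.4 and 19.8. The TGF-beta ligands were more even, with Tgfb3 at 27.8 and 29.8, Tgfb1 at 20.8 and 19.9 and Tgfb2 at 11.4 and 14.5. Of the guidance genes, Sema3e (27.4 and 26.7) and Sema3a (27.4 and 26.5) were level with each other, and Plxnb2, a semaphorin receptor, was at 79.4 and 80.8. Of 28 listed chemokine genes 12 were expressed (42.9%, beside 69.7% of all listed genes), and a few were high. Ccl2 was at 191 and 196, Ccl7 at 139 and 160, Cxcl1 at 87.5 and 131, Cxcl12 at 80.8 and 114, Ccl5 at 50.3 and 64.6 and Cxcl10 at 33.9 and 42.9. Of the 12 expressed, 9 were higher in replicate 2, these 6 among them.

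**Figure D3:**
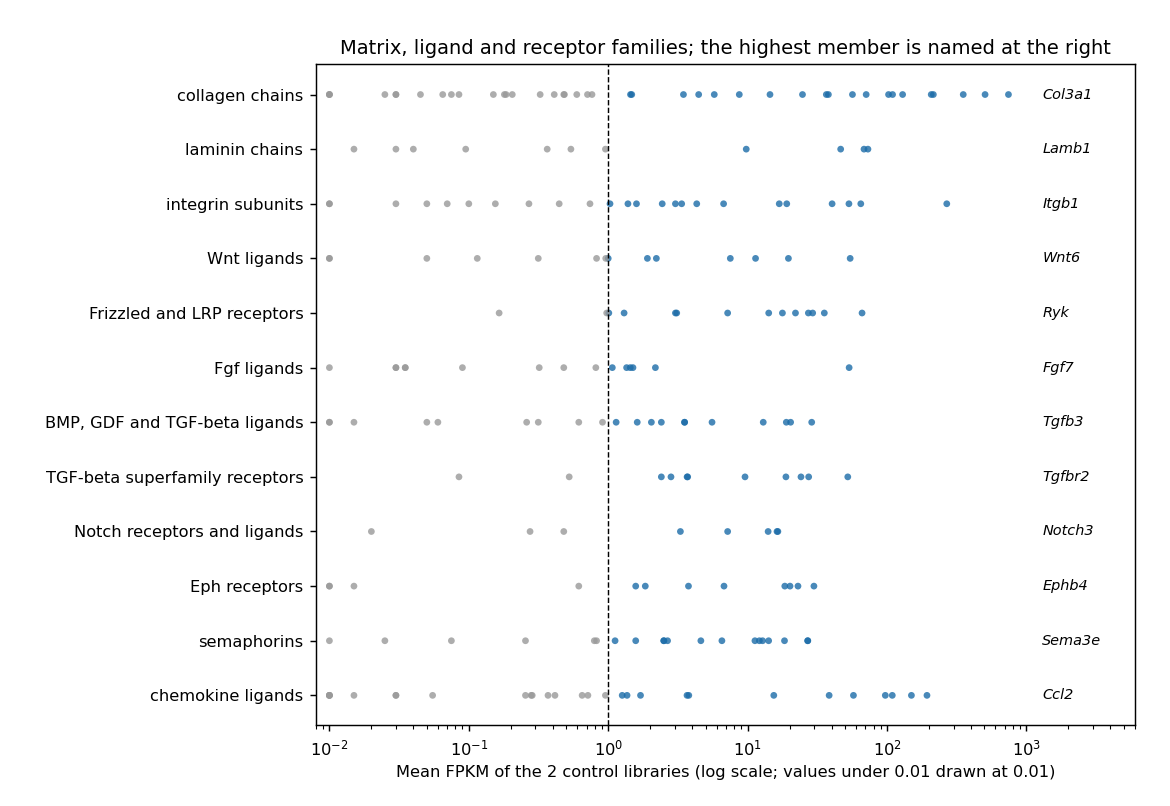
Mean FPKM of the 2 control libraries (log axis) for each listed member of 12 matrix, ligand and receptor families (rows); blue points are expressed, grey points are below 1 FPKM, and the highest member is named. In the Fgf row a single point, Fgf7, stands far right of the others.

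The receptors for the growth factors in the medium were present. Fgfr1 was at 106 and 96.6 and Fgfr2 at 16.8 and 19.6, while Fgfr3 was below the threshold on average (0.71 and 1.05) and Fgfr4 was at 0 in both libraries. Egfr was at 27.6 and 29.9 and its partner Erbb2 at 16.6 and 15.3, and Erbb4 was not listed. The transferrin receptor Tfrc, which takes up the transferrin of N2, was at 28.8 and 19.4, higher in replicate 1. Igf1r and Insr, which bind the insulin of the supplements, were at 8.2 and 8.49 and at 5.59 and 7.3, and Igf2r and the decoy-like Fgfrl1 were at 18.5 and 20.3 and at 12.6 and 12.8.

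All 27 proliferation genes were listed and expressed, beside 69.7% of all listed genes. Cdk4 was at 612 and 575, Pcna, the sliding clamp of replication, at 312 and 273, Top2a at 199 and 203 and Ccnd1 at 171 and 128. The lowest was Cdk6, at 10.7 and 9.73. Of the 17 inhibitor and tumour suppressor genes, 16 were expressed (94.1%, beside 69.7% of all listed genes), at widely different levels. Cdkn2a, the locus of p16 and p19ARF, was at 884 and 933, and its neighbour Cdkn2b was at 68.3 and 82.0; the gene value does not separate p16 from p19ARF. Trp53 was at 20.3 in both libraries and its target Cdkn1a at 4.55 and 4.02, and Rb1, the retinoblastoma gene, was at 2.75 and 2.87. Cdkn1c, at 0.1 and 0.22, was the single member of this list below the threshold.

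Of 23 listed genes of the LKB1 complex and its target kinases, 20 were expressed (86.96%, beside 69.7% of all listed genes). LKB1 works as a complex with a STRAD pseudokinase and an MO25 scaffold and phosphorylates AMPK and related kinases. Strada was at 14.8 and 17.4, Stradb at 6.51 and 8.27 and the MO25 gene Cab39 at 23.8 and 23.1, all below Stk11. Of the AMPK catalytic subunits, Prkaa1 was at 20.3 in both libraries and Prkaa2 at 0.69 and 0.55, and of the gamma subunits Prkag1 led at 57.3 and 57.9. Sik1, Sik2, Sik3, Mark2, Mark3, Mark4, Nuak1, Nuak2, Brsk1 and Snrk were expressed, with Mark3 highest at 33.7 and 32.6, Mark1 was at 0.61 and 0.54, and Brsk2 was not listed. Glycolysis genes were among the most abundant transcripts, with Gapdh at 3174 and 2974, Pkm at 1528 and 1382 and Ldha at 980 and 851. These 3 were higher in replicate 1.

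The highest transcripts were those of translation. The 10 highest genes held 8.65% ± 0.0515 (SD, n = 2) of the summed FPKM and the 100 highest 37.6% ± 0.229. Eef1a1, which brings charged tRNA to the ribosome, was highest at 11898 and 12218. Of the 25 highest genes, 20 encoded cytosolic ribosomal proteins, led by Rpl23a at 6472 and 6537, and Ppia, Fth1 and Tpt1 were also among the 25. The ribosomal protein genes together held 27.3% ± 0.329 (SD, n = 2); reads of these genes can be shared with processed pseudogenes, so single values are uncertain. Between the extremes, 4143 genes lay at 1 to under 10 FPKM, 5908 at 10 to under 100 and 942 at 100 or more, and the median expressed gene was at 15.1.

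Genes below the threshold numbered 4775, of which 2855 were under 0.1 FPKM and 621 had no count in either control library. Just inside the threshold, 110 genes lay at 1 to 1.1 FPKM, and just outside it, 98 lay at 0.9 to under 1. Of 1106 olfactory receptor genes in the RefSeq gene table, 22 were listed. Of these 1 was expressed (4.55%, beside 69.7% of all listed genes), Olfr1033 at 2.61 and 2.98. None of 467 immunoglobulin and T cell receptor genes was listed. Genes not listed have no value and are not among the genes below the threshold, and whether the authors' annotation held them cannot be seen here.

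The libraries were close to each other. Across the 15768 listed genes, which are not independent replicates, log2(FPKM + 1) had a Pearson r of 0.997 and FPKM a Spearman rho of 0.991. Of the expressed genes, 35 (0.318%) were more than 2-fold apart, and all of these lay at 1 to under 10 FPKM. The median fold between the libraries was 1.12 at 1 to under 10 FPKM, 1.07 at 10 to under 100 and 1.06 at 100 or more. With 1 control library in each batch, batch and library cannot be told apart and these differences have no replicate check.

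At a mean of 5 FPKM or more, 2 genes were over 2-fold apart: the histone gene H4c1 at 8.19 and 3.8, and Otor at 4.93 and 10.3. H2bc24 and H3c2, also histone genes, were likewise higher in replicate 1, at 14.4 and 7.6 and at 6.74 and 3.92. These 3 histone values rest on 12.4 to 53.5 counts and on multigene families. H2bc24 had 53.5 and 41.3 counts in replicates 1 and 2, a smaller gap than in its FPKM. Gadd45g, a stress-response gene, was at 24.7 and 43.2, Igfbp2 at 14.4 and 24.9, the carbonic anhydrase gene Car3 at 7.17 and 13.1 and Bmf at 5.54 and 9.7, all higher in replicate 2. Cd99 had 75.7 and 42.0 FPKM on 5 and 3 counts, so its level has little depth behind it.

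Replicate 2 was higher for 56.4% of the expressed genes, and the gene groups were set against this share. Of 20 expressed collagen genes 18 were higher in replicate 2, with a median log2 difference of 0.24 (replicate 2 minus replicate 1), as were 20 of 26 mesenchyme genes, 12 of 13 matrix protease and inhibitor genes and 14 of 18 Hox genes. Of 27 proliferation genes, 6 were higher in replicate 2, with a median log2 difference of -0.10, and of 19 glycolysis genes 6 were. The shifts were small beside the range of levels within each group.

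**Figure D4:**
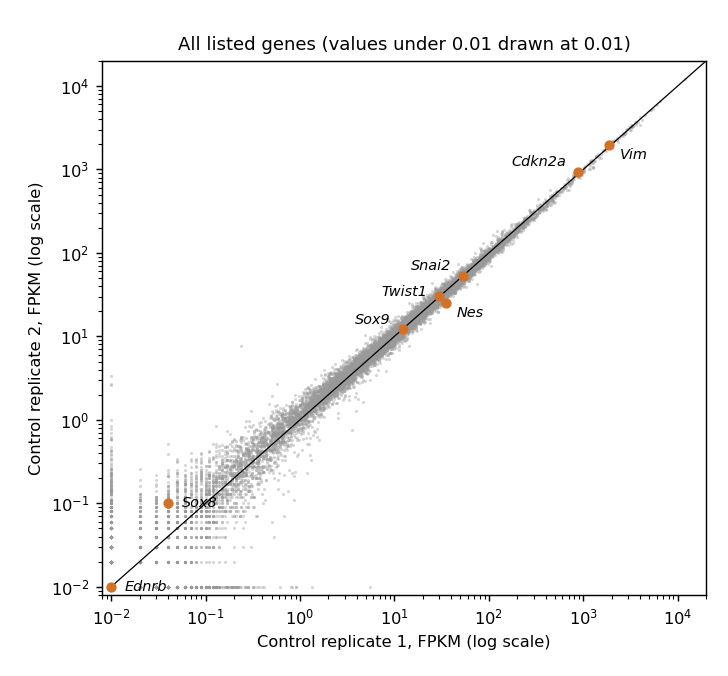
FPKM of every listed gene in control replicate 1 (x) and control replicate 2 (y), both log axes, 1 grey point per gene with the line of equality and named genes in orange. The points narrow around the line as the level rises, and Vim, Snai2, Twist1 and Sox9 lie on it.

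Expressed genes differed from the others in the base composition of their promoters. RefSeq on GRCm38.p6 gave a window of 250 bases before to 50 after the start for 17486 protein-coding genes, 12381 of them in the gene table. A window was called CpG-rich when its observed over expected CpG ratio was at least 0.6 and its GC content at least 50%. Of genes not listed, 8.33% had a CpG-rich window, of those under 0.1 FPKM 24.1%, of those at 0.1 to under 1 38.0%, of those at 1 to under 10 66.2%, of those at 10 to under 100 78.1% and of those at 100 or more 77.5%. The share rose with level up to 10 FPKM and was similar in both classes above it. Seen from the promoter, 81.7% of 7997 CpG-rich genes were expressed and 24.6% of 9489 others. These totals count the 5105 genes not listed as not expressed, although they have no value here. Most of the 5105 fall among the others, which lowers the 24.6%. Of the 3508 listed genes below 1 FPKM, 29.5% had a CpG-rich window.

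**Figure D5:**
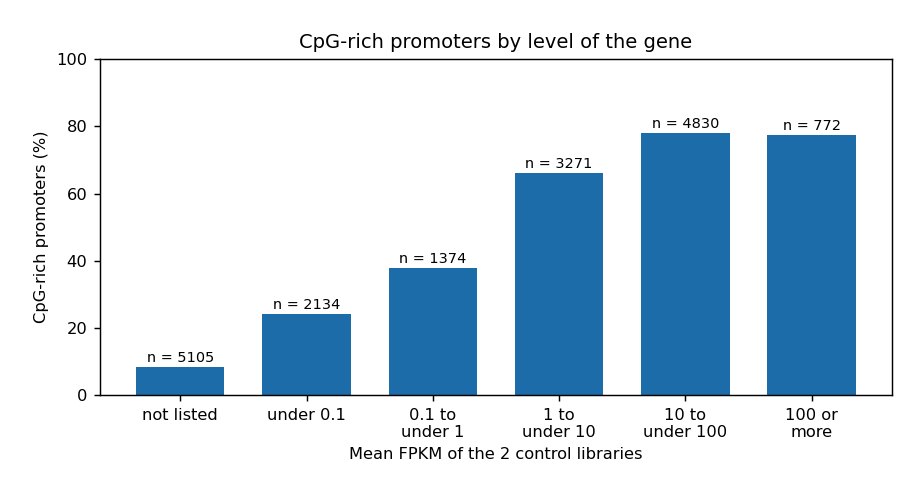
Percent of promoters that are CpG-rich (y, from 0) by mean FPKM class of the gene (x), with the number of promoters above each bar; bars carry no error because they are counts over all genes of a class. The bars climb from 8.33% for genes not listed to 78.1% at 10 to under 100 FPKM.

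Over all promoters, 73.7% of expressed genes and 16.96% of genes not expressed (below 1 FPKM or not listed) had a CpG-rich window. Counts of list members in this paragraph cover only genes for which RefSeq gave a window, not the whole lists above. Of the expressed mesenchyme genes 3 of 15 had a CpG-rich window, a low share in a list that held some of the highest transcripts. The expressed proliferation genes (18 of 21) and crest transcription factors (11 of 18) lay nearer to the share of all expressed genes. Among genes not expressed, the windows were CpG-rich for 8 of 11 central neural progenitor genes, 6 of 9 crest transcription factors, 4 of 6 enteric neural crest genes, 9 of 20 neuron genes and 5 of 12 pluripotency and germ cell genes. They were so for 2 of 14 cartilage and bone genes, 1 of 14 muscle genes and 0 of 10 blood genes. These counts are small, and the lists differed widely among themselves. The pair below, chosen after the values were seen, shows a highly expressed and a silent gene that both lacked CpG, at chr1:45311418-45311537 (Col3a1, plus strand) and chr7:87493513-87493632 (Tyr, minus strand).
Col3a1: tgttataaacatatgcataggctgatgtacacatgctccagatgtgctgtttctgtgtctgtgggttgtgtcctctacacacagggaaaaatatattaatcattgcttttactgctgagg
Tyr: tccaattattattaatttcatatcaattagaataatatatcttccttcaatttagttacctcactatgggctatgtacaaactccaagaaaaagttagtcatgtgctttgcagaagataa
Neither stretch held a CpG, although the means were 743 FPKM for Col3a1 and 0.01 for Tyr.

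Short motifs, searched as exact letters on both strands of the 300-base windows, differed in how they followed these classes. TATAAA was in 6.69% of expressed genes, in 12.3% of listed genes below 1 FPKM and in 25.6% of genes not listed, against 13.3% of all promoters. Within the expressed genes its share was 6.004% at 10 to under 100 FPKM and 11.01% at 100 or more. The letters CCAAT hardly differed, at 40.2% of expressed genes, 36.8% of listed genes below 1 FPKM and 39.0% of all promoters. The GC box GGGCGG was in 67.4% of expressed genes and 39.5% of listed genes below 1 FPKM, against 46.3% of all. The ETS letters CCGGAAG were in 20.0%, 5.05% and 11.9% of the same sets, and the E-box letters CAGGTG, which Snail and Zeb factors can bind, in 15.3%, 24.5% and 19.3%. The GC box and the ETS letters contain CpG, so their shares move with the CpG content above, and a match is not a site of binding.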

How the data were processed

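RNA-seq libraries of 2 control siRNA samples were described; groups came from the treatment labels. Per the submitters' processing notes, HISAT2 2.0.4, Bowtie2 2.2.5 and RSEM 1.2.8 were used with GRCm39, with no role or order stated. The gene annotation is not given in the sources used here. Read counts, normalised read counts, FPKM and TPM stood side by side in 1 gene table, per its header. The authors deposited an expected count per gene, an estimate that need not be whole: 5.82% and 5.97% of a control library's values were not whole. The deposited FPKM, relative to transcript length and library size, was used as given, and the deposited TPM is the authors' value relative to transcript length, scaled to the same total in each library. The deposited normalised read counts (4 columns, 1 per library) were not used. In 14 entries of the control columns a doubled decimal point was read as a single one.

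From these values the mean and SD of the control FPKM were computed for every gene in Python 3.11.15 with pandas 2.3.3. FPKM depends on the transcript lengths that the authors used, and on the other genes of a library. CPM, computed from the counts, and the TPM served as alternatives, as did TMM scaling with edgeR 4.0.16 in R 4.3.3 on counts rounded to whole numbers. The fold between libraries was tried only on simulated counts of well-counted genes at a mean of 5 FPKM or more. These had counting error only and planted differences larger than 2-fold. The simulation therefore does not cover the lower genes, where most of the 35 genes over 2-fold apart lay. No test between groups was made, and the control totals are given with the results. Promoters and gene names came from RefSeq tables on GRCm38. Promoters were matched to levels by gene ID, and list members were looked up by symbol first. The first promoter entry of a gene was used, and 2761 genes had more than 1.

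The 24 lists named 443 genes, of which 342 were listed. Genes named are the 5 markers and Stk11, the 25 highest genes, up to 6 highest expressed members and any members below 1 FPKM of a list or family, all members of the Hox, Sox, crest factor and medium receptor sets, up to 12 genes with the largest fold between the libraries at a mean of 5 FPKM or more, and the 10 highest transcription factors of the families. Promoters were shown for markers and for paralogues in which 1 is expressed and another is under 0.1 FPKM, and for Col3a1 and Tyr, chosen after their values were seen. Some genes that the rule would name are not reported here. Other genes named were chosen after their values were seen, and the members, lists and rules were chosen with earlier results of these data known.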

Additional observations from a re-analysis of the deposited data

How the results depend on the processing

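The count of 10993 expressed genes ranged from 10927 to 11055 when either library was left out. It was within 1.5 times at thresholds of 0.1 (12913), 0.5 (11573) and 2 FPKM (10289), and with TPM (11349), CPM (11687), protein-coding genes only (10935), both libraries (10864), either library (11118) and a minimum of 10 counts in either library (10971, an alternative chosen after seeing the data), but fell to 6850 at 10 FPKM. The 35 genes over 2-fold apart became 248 at 1.5-fold, 9 on the log2(FPKM + 1) scale and 2 at a mean of 5 FPKM or more; TPM, CPM, TMM, protein-coding genes only and the count minimum gave 29 to 36. That count needs both libraries, so leaving one out gives no value. The share of the 100 highest genes ranged from 37.5% to 37.8% without either library; it was 8.65% for the 10 highest genes and 18.9% by read counts, which are not divided by length. Of the 24 lists, the number of expressed members stayed within 1.5 times in 20 at 0.5 FPKM, 19 at 2 FPKM, 21 by TPM and 19 by CPM; the 3 melanocyte genes fell to 0 at 2 FPKM, and the 5 neuron genes became 8 by CPM. No paired analysis was possible because a single group is described and no result comes from a test. With 2 libraries an SD rests on 1 difference, and 22 expressed genes had under 10 counts in both libraries.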

Other observations

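Some families that form the cytoskeleton and its membrane partners were not described above. Actg1 stood at 2631 and 2488 FPKM (control replicates 1 and 2) and Actb at 1297 and 1253, both cytoplasmic actins, while Acta1 of skeletal muscle was at 0.09 and 0. Of 16 listed tubulin genes 13 were expressed (81.25%, beside 69.7% of all listed genes), led by Tuba1b at 1341 and 1246 and Tubb5 at 1020.0 and 1031. Anxa1, an annexin that binds membranes in the presence of calcium, was at 1279 and 1077 and Anxa2 at 952 and 923. Of the S100 genes, S100a6 was at 2985 and 3045 and S100a11 at 1483 and 1368, and S100a8 was at 0 in both libraries. Of 9 listed syndecan and glypican genes 8 were expressed (88.9%, beside 69.7% of all listed genes). The syndecan Sdc4 was at 153 and 124 and the glypican Gpc1 at 70.7 and 71.0.

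Of 23 listed keratin genes 5 were expressed (21.7%, beside 69.7% of all listed genes). The highest was Krt13, a keratin of stratified epithelia, at 12.4 and 13.6 FPKM, while Krt8 and Krt18 of simple epithelia were at 0.32 and 0.34 and at 0.05 and 0.14. Among vascular growth factor genes, Vegfb was at 59.6 and 67.9 and Vegfd at 23.5 and 27.4. The expressed Notch receptor genes were Notch3 (13.6 and 19.4), Notch2 (13.4 and 14.6) and Notch1 (7.34 and 7.04). The expressed Notch ligand genes were Jag2 at 16.7 and 15.8 and Jag1 at 3.38 and 3.21, while Dll1 was at 0.45 and 0.51.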
